A study of Mus musculus with 4 samples.

Results

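The genes described are 10 components of the Hippo pathway, chosen by symbol: the co-activators Yap1 and Wwtr1, the DNA-binding factors Tead1, Tead2, Tead3 and Tead4, the kinases Lats1 and Lats2, and the secreted target genes Ccn1 and Ccn2. All 10 were found among the 40092 rows of the count table, and 9 were among the 16661 genes with enough counts to be tested. The libraries were made from lung alveolar type 2 (AT2) cells, the surfactant-producing progenitors of the alveolus, sorted by FACS for GFP on day 14 after bleomycin, a drug that damages the alveolar epithelium. The 2 control libraries (Ctrl, Alkbh5flox/+; Sftpc-CreERT2; Rosa26-mTmG) carried a single floxed allele of the RNA m6A demethylase gene Alkbh5, and the 2 knockout libraries (A5-CKO, Alkbh5flox/flox; Sftpc-CreERT2; Rosa26-mTmG) carried the floxed allele on both chromosomes. Ctrl and A5-CKO mice were littermates, and both received tamoxifen and bleomycin, so both carried recombined, GFP-positive cells. The Sftpc promoter restricts the tamoxifen-inducible Cre to cells that express surfactant protein C, and the reporter stays on in their descendants, so a sorted population may hold cells that have since left the AT2 state. The sources used here give neither the age of the mice nor whether a library came from a single mouse, and p-values therefore measure the spread between these libraries, which may be technical.

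The Hippo pathway is a kinase cascade that limits tissue growth. The MST kinases activate LATS1 and LATS2, which phosphorylate the co-activators YAP (Yap1) and TAZ (Wwtr1) and keep them in the cytoplasm, where they are degraded. Unphosphorylated YAP and TAZ enter the nucleus, bind the TEAD factors and switch on genes such as Ccn1 and Ccn2, and in the injured lung they are known to take part in the passage of AT2 cells to alveolar type 1 (AT1) cells. Counts of mRNA do not report phosphorylation or the location of a protein.

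The libraries held between 18144865 and 20811757 counts. Values are given as raw counts, as TMM-scaled CPM, or, where genes are compared with each other, as CPM per kilobase of exon. The detection floor, 3 counts, lay at 0.128 to 0.177 CPM and covers counting error only. Alkbh5, the targeted gene, had 1381 and 2618 counts in Ctrl 1 and 2 against 427 and 856 in A5-CKO 1 and 2. Its log2 fold change was -2.06 ± 0.46 (SE, adjusted p = 0.528 in edgeR and 0.0227 in DESeq2).

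None of the 9 tested Hippo genes passed the adjusted threshold of 0.05 in edgeR's quasi-likelihood test, where 0 of 16661 genes (0%) did. At an unadjusted p under 0.05 the count was 0 of 9 members and 1530 of 16661 genes (9.18%). DESeq2 with its default filtering called 59 of 15525 genes (0.380%) and limma voom called none, with none of the members among the calls of either tool. The smallest adjusted p that any member reached over all alternatives was 0.411. Of the 9 members, 6 had a log2 fold change above 0 and 3 below it, with a median of 0.18 against -0.02 over all tested genes. A single library moved that median, to 0.00 without A5-CKO 2, 0.27 without Ctrl 1, 0.36 without Ctrl 2 and 0.49 without A5-CKO 1. With total counts as the only scaling it was 0.50, where the median of all tested genes was 0.30. Both A5-CKO libraries lay above both Ctrl libraries for 3 members, Wwtr1, Tead1 and Ccn1, which 3384 of all tested genes (20.3%) also did. For 1 member, Tead3, both lay below, as for 3913 of all tested genes (23.5%).

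**Figure D1:**
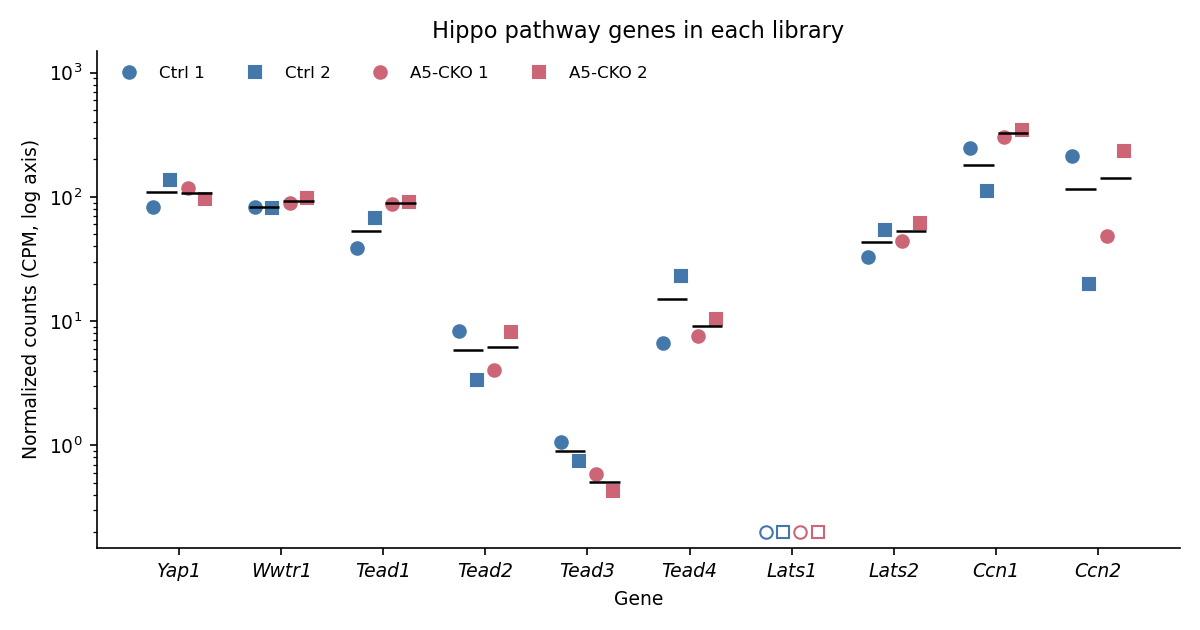
Normalized counts (CPM, log axis) of the 10 Hippo pathway genes in each library. Circles are replicate 1 and squares replicate 2 of Ctrl (blue) and A5-CKO (red), short lines are group means (n = 2), and open symbols at the bottom mark counts of 0. Ccn2 spanned from 19.8 to 233 CPM, while Wwtr1 stayed between 81.9 and 97.5 CPM.

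The level of each gene per kilobase of exon, averaged over the 4 libraries, ordered the members as follows. The secreted targets came first, Ccn1 at 125 CPM per kilobase and Ccn2 at 45.0. The co-activators followed, Wwtr1 at 18.4 and Yap1 at 11.8 CPM per kilobase, then Lats2 at 6.91. Leaving aside Lats1, which had no counts, the TEAD factors were lowest, with Tead1 at 5.23, Tead4 at 3.34, Tead2 at 1.25 and Tead3 at 0.106 CPM per kilobase. Neighbours whose libraries overlapped on this scale were Ccn1 and Ccn2, Ccn2 and Wwtr1, Lats2 and Tead1, and Tead1 and Tead4. Neighbours that did not overlap were Wwtr1 and Yap1, Yap1 and Lats2, Tead4 and Tead2, and Tead2 and Tead3.

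The promoters of Ccn1 and Yap1 are shown because these genes stand at the ends of the pathway, the target and its co-activator, and both hold the TEAD core motif. They are the bases before the annotated gene on the RefSeq assembly GRCm38.p6, minus strand, at chr3:145649986-145650235 for Ccn1 and chr9:8004639-8004846 for Yap1, written 5′ to 3′ with the core GGAATG, or its complement CATTCC, in capitals.
Ccn1: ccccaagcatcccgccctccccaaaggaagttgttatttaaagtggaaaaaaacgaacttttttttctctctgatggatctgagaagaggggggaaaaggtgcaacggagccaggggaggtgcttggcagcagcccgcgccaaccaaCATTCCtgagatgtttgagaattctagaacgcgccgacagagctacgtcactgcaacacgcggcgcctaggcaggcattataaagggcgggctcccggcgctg
Yap1: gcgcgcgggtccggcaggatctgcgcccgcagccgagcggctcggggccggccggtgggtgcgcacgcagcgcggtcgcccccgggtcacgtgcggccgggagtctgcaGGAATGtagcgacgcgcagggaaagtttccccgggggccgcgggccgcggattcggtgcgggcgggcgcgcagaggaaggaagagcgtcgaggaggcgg
The Ccn1 stretch was 54.8% G and C, held the core on the opposite strand with its first printed base 103 bases before the start, and also held the TATA motif TATAAA. The Yap1 stretch was 77.4% G and C, with the core on the gene's strand. RefSeq entries were matched for 7 of the 10 members (none for Tead1, Tead4 and Ccn2), with 11 promoters. In the 250 bases before the start, searched on both strands, GGAATG was in 6 of those 11 promoters, which belong to Ccn1, Tead3, Wwtr1 and Yap1 and may overlap within a gene, and in 4153 of 32851 promoters of the table (12.6%). The AP-1 motif TGANTCA was in none of the members' promoters and in 6.75% of all. TATAAA was in that of Ccn1 alone among the members and in 12.4% of all. A match is a description of letters, not of binding.

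Among the co-activators, Yap1 and Wwtr1 were both well expressed, with log2 fold changes near 0. Yap1 (chromosome 9, 7931999 to 8004638), which encodes YAP, had 82.9 and 138 CPM in Ctrl 1 and 2 against 119 and 96.7 in A5-CKO 1 and 2. Both A5-CKO libraries lay between the Ctrl libraries, and the log2 fold change was -0.03 ± 0.35 (SE, adjusted p = 0.980 in edgeR). Its sign changed with the scaling and with the library left out, from -0.27 to 0.36, and it was -0.35 with a correction for GC content and transcript length. Wwtr1 (chromosome 3, 57455644 to 57575910), which encodes TAZ, had 83.1 and 81.9 CPM in the Ctrl libraries and 89.2 and 97.5 in the A5-CKO libraries. This was the most even of the members between the Ctrl libraries, which differed by 0.02 on the log2 scale, less than 97.9% of all genes with counts in every library. The A5-CKO libraries were higher without overlap, yet the log2 fold change was 0.18 ± 0.27 (SE, adjusted p = 0.838 in edgeR), and with that correction it was -0.16. Wwtr1 overlaps the pseudogene Gm16016, which had at most 74 counts in a library.

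The balance of the co-activators was read within each library, where the scaling between libraries has no part. Per kilobase of all annotated exons, the ratio of Wwtr1 to Yap1 was 1.94 and 1.15 in the Ctrl libraries and 1.45 and 1.95 in the A5-CKO libraries. The groups overlapped and the difference of means was 0.154 (exact permutation p = 0.667, two-sided). Which co-activator was the higher depended on the length used. Per kilobase of the longest transcript the ratios were 1.13 and 0.668 in Ctrl against 0.841 and 1.13 in A5-CKO.

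Tead1 was the TEAD gene with the most counts and the member nearest to the unadjusted threshold. Tead1 (chromosome 7, 112679356 to 112906784) had 657 and 1160 counts in Ctrl 1 and 2 against 1929 and 2111 in A5-CKO 1 and 2. In CPM these were 38.8 and 67.5 against 87.3 and 90.2, a mean of 53.2 ± 20.3 in Ctrl and 88.8 ± 2.05 in A5-CKO (SD, n = 2). The A5-CKO libraries nearly coincided and both lay above the Ctrl libraries, which were spread apart. The log2 fold change was 0.74 ± 0.35, or 1.67-fold (SE, unadjusted p = 0.0713, adjusted p = 0.529 in edgeR; adjusted p = 0.513 in DESeq2). It was 0.48 without Ctrl 1 and 1.17 without Ctrl 2, and stayed above 0 in each alternative. With the GC and length correction it was 0.29 (edgeR, unadjusted p = 0.298), and with total counts as the only scaling, under which the median of all genes moved to 0.30, it was 1.07 (edgeR, unadjusted p = 0.0144). Tead1 has the longest exon union of the members (13.6 kilobases). The nuclear long RNAs Malat1 and Neat1 together had 1180 and 1110 CPM in the Ctrl libraries and 6020 and 2050 in the A5-CKO libraries, higher in the same group, and their part in the value of Tead1 was not tested.

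The other TEAD genes did not follow Tead1. Tead4 (chromosome 6, 128227143 to 128300813) had 6.68 and 23.3 CPM in Ctrl against 7.65 and 10.5 in A5-CKO, and its log2 fold change was -0.72 ± 0.63 (SE, adjusted p = 0.695 in edgeR). Ctrl 2 alone was high, and without it the value was 0.42. Tead2 (chromosome 7, 45215792 to 45233468) had 8.34 and 3.37 CPM in Ctrl against 4.07 and 8.21 in A5-CKO, and its log2 fold change was 0.07 ± 0.65 (SE, adjusted p = 0.977 in edgeR). Its libraries differed by more than 2-fold within each genotype and hardly at all between the group means. Tead3 (chromosome 17, 28331671 to 28350805) had 18 and 13 counts in Ctrl against 13 and 10 in A5-CKO, the fewest of the tested members. With these counts its log2 fold change of -0.83 ± 0.76 (SE, adjusted p = 0.703 in edgeR) has little precision.

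Within the TEAD family, Tead1 held the larger share in A5-CKO. Of the summed TEAD counts per kilobase of exon, Tead1 took 43.2% and 40.6% in Ctrl 1 and 2 against 67.7% and 58.6% in A5-CKO 1 and 2. The means were 41.9% ± 1.89 and 63.2% ± 6.47 (SD, n = 2), 21.3 percentage points apart without overlap. Tead4 took 28.1% and 52.8% in Ctrl against 22.4% and 25.7% in A5-CKO, 16.3 points lower in A5-CKO on average (group difference -16.3). Tead2 took 26.3% and 5.75% in Ctrl against 8.96% and 15.1% in A5-CKO, while Tead3 stayed at 2.39% or below in every library. The exact permutation p was 0.333 (two-sided) for the shares of Tead1 and of Tead4, the smallest that this test can give with 2 libraries against 2. The ratio of Tead1 to Tead4 was 1.54 and 0.769 in Ctrl against 3.03 and 2.28 in A5-CKO (exact permutation p = 0.333). In raw counts the Tead1 difference was 14.1 points. The shares were not corrected for the GC content and length biases that can differ between libraries. With that correction the log2 fold change of Tead1 went from 0.74 to 0.29, and that of Tead4 from -0.72 to -0.46.

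**Figure D2:**
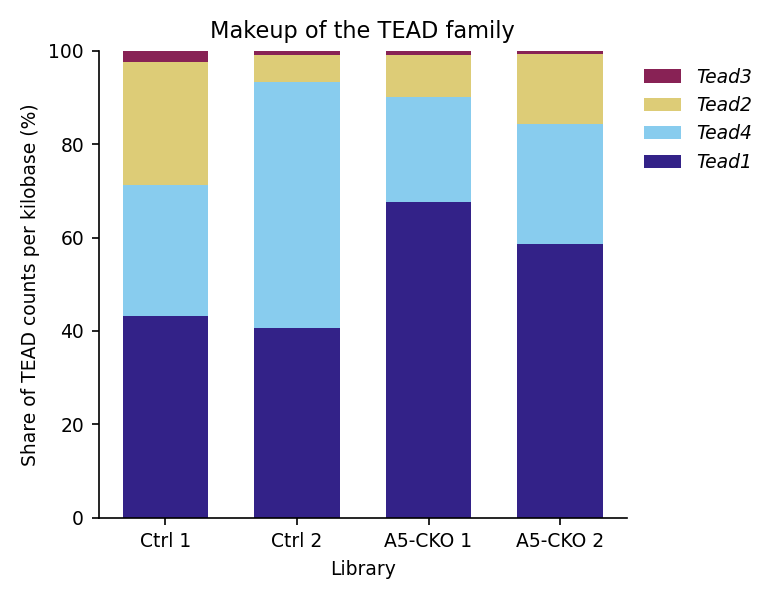
Share of the summed TEAD counts per kilobase of exon (percent) taken by Tead1, Tead4, Tead2 and Tead3 in each library, stacked to 100. The Tead1 share was 43.2% and 40.6% in the Ctrl libraries and 67.7% and 58.6% in the A5-CKO libraries, and Tead4 had its widest share, 52.8%, in Ctrl 2. The shares carry no GC and length correction.

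Of the LATS kinases, which phosphorylate and restrain YAP and TAZ, Lats2 alone had counts. Lats2 (chromosome 14, 57689662 to 57746212), itself listed among YAP and TAZ targets, had 33.0 and 54.3 CPM in Ctrl 1 and 2 against 43.8 and 61.6 in A5-CKO 1 and 2. The groups interleaved, and the log2 fold change was 0.27 ± 0.37 (SE, adjusted p = 0.811 in edgeR), between 0.00 and 0.66 with 1 library left out. Lats2 overlaps Gm52140 and the small nucleolar RNA gene Gm26440, which had at most 29 counts in a library.

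Lats1 (chromosome 10, 7681200 to 7716461) was listed at 0 in all 4 libraries and was not tested. It was not alone: 8 genes that follow each other in the annotation, from 7491302 to 7763150 on chromosome 10, were at 0 in every library. Protein-coding among them were Lrp11, Pcmt1, Nup43, Lats1 and Katna1, of which Nup43 encodes a nuclear pore subunit and Pcmt1 a protein repair methyltransferase, both broadly expressed. Just outside, Ginm1 had 1189 counts in all. Since genes that most cells use shared the value, the 0 of Lats1 is given as listed and is not read as a lack of expression. No member has a further row on a patch of the assembly. Where the paper describes counting, only uniquely mapped reads were kept, so reads matching several places would not appear in any row. Why these genes were at 0 was not tested.

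Tead3 also lay in a stretch of low values, although not of 0 alone. Of the 22 protein-coding genes within 500 kilobases of it, 7 were at 0 in every library, against 3920 of all 21770 protein-coding genes, and their median was 0.588 CPM. Those at 0 included Snrpc, a splicing factor component, and Taf11, a subunit of the general transcription factor TFIID. Outside that window, Rps10, a subunit of the small ribosome, was the only one at 0 of 76 cytosolic ribosomal protein genes, whose median was 405 CPM, and Rpl10a, the gene beside Tead3, ranked 4 from the lowest with a mean of 16.3 CPM. The level of Tead3 is therefore given with that limit, and why these stretches were low was not tested. Around Wwtr1, Tead1, Tead2, Tead4, Lats2 and Ccn1 no protein-coding gene within 500 kilobases was at 0 in every library, around Yap1 it was 2 of 11 and around Ccn2 2 of 8.

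**Figure D3:**
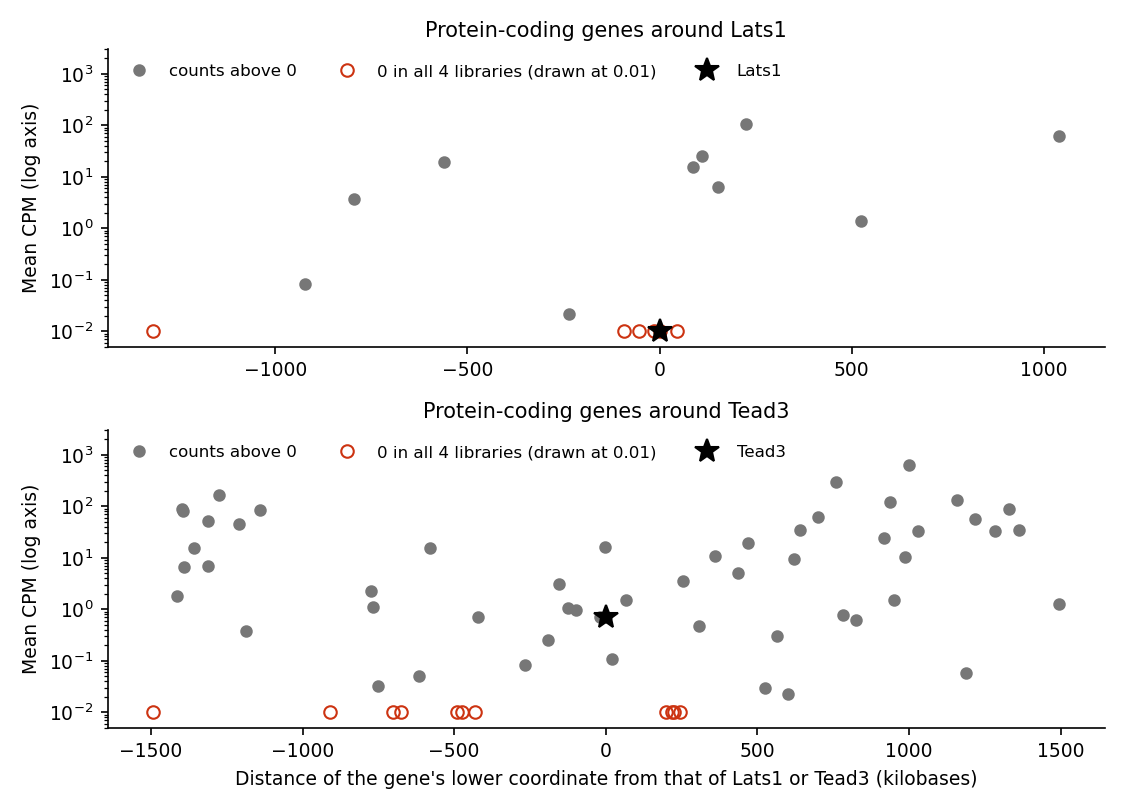
Mean CPM over the 4 libraries (log axis) of protein-coding genes against their distance in kilobases from Lats1 (top) and Tead3 (bottom). Red open circles are genes at 0 in all 4 libraries, drawn at the bottom, and stars mark Lats1 and Tead3. Lats1 sits within a run of genes at 0, and Tead3, at 0.709 CPM, sits among genes with a median of 0.588 CPM.

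The secreted targets Ccn1 and Ccn2 encode matricellular proteins and are direct targets of YAP, TAZ and TEAD, and they gave different pictures. Ccn1 (chromosome 3, 145646971 to 145649985), formerly Cyr61, had 246 and 112 CPM in Ctrl 1 and 2 against 305 and 347 in A5-CKO 1 and 2. Both A5-CKO libraries lay above both Ctrl libraries, with means of 326 ± 29.8 and 179 ± 94.9 CPM (SD, n = 2). The log2 fold change was 0.86 ± 0.43, or 1.82-fold (SE, unadjusted p = 0.0860, adjusted p = 0.542 in edgeR; adjusted p = 0.504 in DESeq2). It was 1.62 without Ctrl 1 (edgeR, unadjusted p = 0.0053, adjusted p = 0.492) and 0.38 without Ctrl 2, and 1.10 with the GC and length correction. Ccn1 is also an immediate early gene, and the summed CPM of 12 such genes was 3780 and 6650 in Ctrl against 12000 and 3520 in A5-CKO, highest in A5-CKO 1 and lowest in A5-CKO 2, where Ccn1 was highest.

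Ccn2 (chromosome 10, 24595442 to 24598683), formerly Ctgf, had 3605 and 340 counts in Ctrl 1 and 2 against 1079 and 5446 in A5-CKO 1 and 2. In CPM these were 213 and 19.8 against 48.8 and 233. Each genotype had a high and a low library, and the groups overlapped fully. The log2 fold change was 0.27 with a standard error of 1.06, the widest of the members (adjusted p = 0.936 in edgeR). It ran from -1.25 without A5-CKO 2 to 2.93 without Ctrl 1 (edgeR, unadjusted p = 0.0275, adjusted p = 0.498). Ccn2 overlaps the long noncoding RNA Gm15270, which had 308, 24, 80 and 343 counts in the same library order. How the counting treated strand is not stated, so reads of the pair cannot be told apart with certainty. The ratio of Ccn1 to Ccn2 per kilobase was 1.64 and 8.03 in Ctrl against 8.83 and 2.11 in A5-CKO (exact permutation p = 0.667).

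**Figure D4:**
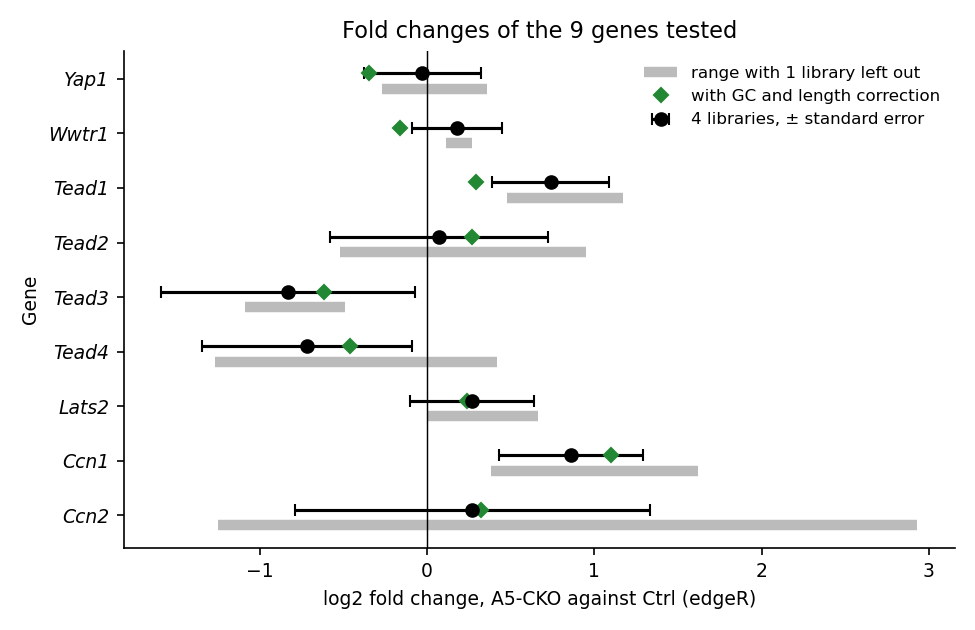
Log2 fold change of A5-CKO against Ctrl for the 9 tested Hippo genes. Black points are edgeR values with their standard errors, grey bars the range with 1 library left out, and green diamonds the values with a GC and length correction. The bars of Yap1, Tead2, Tead4 and Ccn2 cross 0, and that of Lats2 starts at 0.00. Those of Wwtr1 (0.11 to 0.27), Tead1 (0.48 to 1.17), Tead3 (-1.09 to -0.49) and Ccn1 (0.38 to 1.62) do not cross 0.

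Ccn2 was the member that differed most within a genotype. Ctrl 1 was 10.8-fold above Ctrl 2 and A5-CKO 2 was 4.77-fold above A5-CKO 1, differences of 3.43 and 2.25 on the log2 scale. Only 0.95% of 16324 tested genes with counts in every library differed more between the Ctrl libraries, and 4.04% did between the A5-CKO libraries, where the medians were 0.507 and 0.433. Tead4 followed between the Ctrl libraries with 1.80, a size that 6.49% of genes exceeded, and Tead2 with 1.30 (12.9%) and Ccn1 with 1.14 (16.6%). Between the A5-CKO libraries Ccn1 differed by 0.19 and Tead1 by 0.05 on the log2 scale.

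The same 2 libraries were the higher of their genotype for several other published YAP and TAZ targets, a pattern noticed after the values were seen and given here without a test. Of the 22 listed targets, 7 were at least 2-fold higher both in Ctrl 1 than in Ctrl 2 and in A5-CKO 2 than in A5-CKO 1, against 724 of 16324 genes (4.44%). They were Ccn2, from which the pattern was read, and Ankrd1, Axl, F3, Fjx1, Ccdc80 and Nt5e. Fjx1 met the rule with 34 and 2 counts in Ctrl against 15 and 64 in A5-CKO, and the 2 counts of Ctrl 2 lie below the detection floor of 3 counts. With the members Ccn1, Ccn2 and Lats2 left out, 6 of 19 targets met this rule (31.6%). Ankrd1, a cardiac and muscle stress gene much used as a YAP readout, had 8.87 and 1.28 CPM in Ctrl against 3.26 and 9.02 in A5-CKO. F3, tissue factor, had 79.6 and 38.8 CPM in Ctrl against 37.0 and 142 in A5-CKO. In both the genotypes overlapped.

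Markers of other cells moved between the same libraries. The summed CPM of 10 fibroblast and smooth muscle markers was 435 and 162 in Ctrl 1 and 2 against 103 and 1130 in A5-CKO 1 and 2, and 5 of the 10 met the same 2-fold rule (Col1a1, Col1a2, Col3a1, Acta2 and Postn). That of 9 leukocyte markers was 500 and 184 in Ctrl against 229 and 696 in A5-CKO, with 5 of 9 meeting the rule (Cd68, Marco, Mrc1, Adgre1 and Csf1r). The leukocyte markers Ptprc, Itgam, Cd3e and Cd79a did not meet it. Ptprc had 50.9 and 22.5 CPM in Ctrl against 84.3 and 82.8 in A5-CKO, higher in A5-CKO without overlap (log2 fold change 1.19). Its unadjusted p was 0.026 in edgeR (adjusted p = 0.528), and no other leukocyte marker was under 0.05. Expression of the listed targets by each type of cell was not measured here. The summed CPM of 9 markers of transitional cells, an epithelial state between AT2 and AT1, was 3800 and 1660 in Ctrl against 2430 and 4040 in A5-CKO. Of these, 2 of 9 met the 2-fold rule (Cldn4 and Lgals3). Without a 2-fold limit, Ctrl 1 and A5-CKO 2 both lay above the other libraries for 2486 of 16324 tested genes (15.2%). This held for 8 of 10 fibroblast and smooth muscle, 6 of 9 leukocyte and 8 of 9 transitional markers. None of these lists was at 0 in any library. The part of any of these cells in the values of Ccn2 and the other targets was not tested.

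The identity of the sorted cells was read from the same libraries. Sftpc, the defining AT2 gene, had 15500 and 16400 CPM in Ctrl against 10300 and 7860 in A5-CKO. The 10 AT2 markers summed to 56700 and 82200 CPM in Ctrl against 42200 and 34900 in A5-CKO, all 10 had a fold change below 0, where 8478 of 16661 tested genes did, and 7 lay lower in A5-CKO without overlap, where 23.5% of tested genes did. Of the 10 AT1 markers, 8 were tested, and 6 of these had a fold change above 0 (median 0.60). Hopx, Cav1, Clic5 and Akap5 were higher in A5-CKO without overlap, where 20.3% of tested genes were, and Aqp5 was lower without overlap. Ager and Pdpn, which define AT1 cells, were under 1 CPM in every library. The sum of the list, most of it Aqp5 and Emp2, lay between 2150 and 2340 CPM. The 8 endothelial markers summed to 124 to 247 CPM, with Cldn5 listed at 0 throughout. The genes around Cldn5 were not examined, so its 0 is not read as a lack of expression. In bulk libraries such as these, fewer cells of a type and less RNA per cell cannot be told apart.

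**Figure D5:**
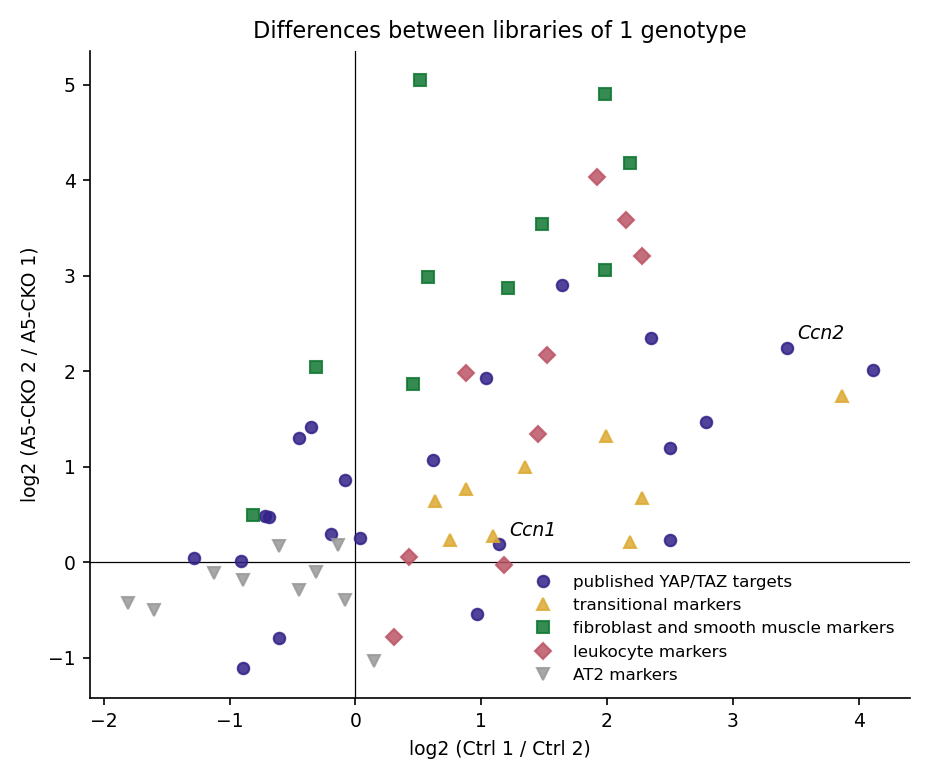
Differences between libraries of the same genotype, as log2 of Ctrl 1 over Ctrl 2 (horizontal) and of A5-CKO 2 over A5-CKO 1 (vertical), with a point per gene for the published YAP and TAZ targets and for 4 lists of cell markers. Ccn2 lies at 3.43 and 2.25 in the upper right with fibroblast, leukocyte and transitional markers, among them the transitional marker Cldn4 at 3.87 and 1.74. Ccn1 lies at 1.14 and 0.19, and no AT2 marker was 2-fold higher in both Ctrl 1 and A5-CKO 2.

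The remaining pathway was examined in lists that hold 74 genes outside the members, of which 71 were tested. Of these, 46 had a log2 fold change above 0 and 25 below it, with a median of 0.13 against -0.02 for all tested genes. At an unadjusted p under 0.05 in edgeR, 7 were higher in A5-CKO, where 4.48% of all tested genes were, and 2 were lower, where 4.71% were. None passed the adjusted threshold in edgeR. The medians of the 2 largest upstream lists changed sign with the GC and length correction, from 0.08 to -0.10 for the core kinases and adaptors and from 0.13 to -0.07 for the binding and junction proteins. Without Ctrl 2 they were 0.39 and 0.35, and without Ctrl 1 they were -0.05 and 0.03.

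Upstream of the LATS kinases, 10 of 16 core kinases and adaptors had a value above 0. The unadjusted threshold was passed by 2 of them, both higher, where 4.48% of all tested genes were. Taok1, a kinase that activates MST and LATS, had 54.5 and 54.7 CPM in Ctrl against 118 and 102 in A5-CKO (log2 fold change 1.01 ± 0.28, SE, unadjusted p = 0.00874, adjusted p = 0.528 in edgeR). Both A5-CKO libraries lay far above 2 nearly equal Ctrl libraries, but with the GC and length correction the value was 0.22. Map4k4, which phosphorylates LATS in parallel to MST, had 85.1 and 70.8 CPM in Ctrl against 128 and 133 in A5-CKO (log2 fold change 0.74 ± 0.29, SE, unadjusted p = 0.0357, adjusted p = 0.528 in edgeR), and 0.63 with that correction. Stk38, a kinase related to LATS, had 27.2 and 21.5 CPM in Ctrl against 58.2 and 31.3 in A5-CKO, giving a log2 fold change of 0.88 (unadjusted p = 0.0646 in edgeR). At the lower end were Nf2, the merlin scaffold that recruits LATS to the membrane, at -0.41 and Taok2 at -0.15, both with overlapping groups.

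Among 20 proteins that bind YAP and TAZ or form the junctions that signal to them, 14 had a value above 0. At the unadjusted threshold 2 were higher and 2 lower, where 4.48% and 4.71% of all tested genes were. Ptpn14, a phosphatase that retains YAP in the cytoplasm and is itself a YAP target, had 31.2 and 33.0 CPM in Ctrl against 47.1 and 85.2 in A5-CKO, giving a log2 fold change of 1.04 ± 0.37 (SE, unadjusted p = 0.0255 in edgeR). Mpp5, which encodes the polarity scaffold PALS1, had 44.7 and 27.0 CPM in Ctrl against 70.2 and 59.5 in A5-CKO, giving a log2 fold change of 0.86 (unadjusted p = 0.0446 in edgeR). Its partner Crb3, an apical polarity protein, went the other way, with 182 and 123 CPM in Ctrl against 77.0 and 88.9 in A5-CKO (log2 fold change -0.88, unadjusted p = 0.0296 in edgeR). Wtip, a LIM protein of the Ajuba family that binds LATS, had 96.7 and 72.1 CPM in Ctrl against 41.9 and 45.4 in A5-CKO (log2 fold change -0.95, unadjusted p = 0.0160 in edgeR). With the GC and length correction these 4 genes stood at 0.72, 0.33, -0.45 and -0.55, and each had an adjusted p of 0.528 before it. Amot, an angiomotin that binds YAP, had under 10 CPM in every library and a log2 fold change of 0.93 with overlapping groups.

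Of the 13 genes of the STRIPAK phosphatase complex, which switches MST kinases off, and of YAP turnover, 6 had a value above 0 (median -0.15). At the unadjusted threshold 3 were higher, where 4.48% of all tested genes were, and all of them are STRIPAK components. Strn3 had 53.0 and 49.6 CPM in Ctrl against 89.1 and 74.8 in A5-CKO, giving a log2 fold change of 0.67 that was 0.10 with the GC and length correction. Slmap, which docks MST to the complex, had 48.0 and 57.7 CPM in Ctrl against 90.5 and 80.7 in A5-CKO, giving a log2 fold change of 0.70, or 0.40 with that correction. Strip2 rested on few reads, 6 and 6 counts in Ctrl against 30 and 31 in A5-CKO (log2 fold change 1.91 ± 0.74, SE). The scaffold subunit Ppp2r1a and Strn4 had the lowest values, -0.56 and -0.44, with groups that did not overlap. Of the 13 genes, 4 lay higher and 4 lower without overlap, where 20.3% and 23.5% of all tested genes did.

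The VGLL proteins compete with YAP and TAZ for TEAD, and 2 of the 4 were tested. Vgll4, the repressor, had 63.6 and 137 CPM in Ctrl against 81.7 and 61.6 in A5-CKO, giving a log2 fold change of -0.49 with overlapping groups. Vgll3 had 10 to 105 counts in a library and a value of 1.32 that was as low as 0.14 with a library left out.

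The 22 published targets, which include Ccn1, Ccn2 and Lats2, had 17 values above 0 and 5 below it, with a median of 0.27. That median was 0.91 without Ctrl 1, 0.87 without A5-CKO 1 and 0.01 without A5-CKO 2. Ptpn14 alone passed the unadjusted threshold, which 9.18% of all tested genes did. Nt5e, the ectonucleotidase CD73, had 27.9 and 4.95 CPM in Ctrl against 25.9 and 59.7 in A5-CKO (log2 fold change 1.38, unadjusted p = 0.123 in edgeR). At the lower end were Arhgef17 at -0.34 and Igfbp3 at -0.21. Of the other CCN family genes, Ccn4 (log2 fold change 1.42 ± 1.42, SE) and Ccn5 (-1.06) had at most 6.28 CPM in a library, and Ccn3 (0.85) had 10 to 27 counts.

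The pathway genes most like 3 of the members over the 4 libraries were found by Pearson's r of log2(CPM + 0.5) among 79 genes, as a description over libraries that share depth and cell makeup. For Tead1 they included Ctnna1 (0.993) and Tjp1 (0.988), which encode junction proteins. Ctnna1 hardly changed, with 470 and 492 CPM in Ctrl against 511 and 511 in A5-CKO (log2 fold change 0.08), since r does not measure the size of a change. Tjp1 had 90.4 and 146 CPM in Ctrl against 196 and 177 in A5-CKO. For Ccn1 they were Rassf1 (0.985), Nt5e (0.969) and Tgfb2 (0.968). For Ccn2 they were Ankrd1 (0.997), Fjx1 (0.993) and Tead2 (0.987). Fjx1 had 2 counts in Ctrl 2, below the detection floor of 3 counts. With 4 libraries, the highest of 79 values of r easily come near 1, so these values do not show shared regulation.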

How the data were processed

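RNA-seq libraries of FACS-purified AT2 cells on day 14 after bleomycin were analysed, 2 Ctrl and 2 A5-CKO, the groups being taken from the genotype labels. The authors trimmed reads with Trim Galore 0.6.10, aligned with HISAT2 to mm10.p6 and removed duplicates, and they deposited raw read counts per gene. Their paragraph on RNA-seq also names removal of ribosomal RNA reads and peak calling. That on MeRIP-seq names HISAT2 version 2.2.1, a restriction to uniquely mapped reads, and counting with featureCounts 2.0.3. Which of these steps applied to the present libraries is uncertain, and the counting was taken to be the same. The strand setting is not given in the sources used here.

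The counts were analysed with edgeR 4.0.16 in R 4.3.3 (TMM, filterByExpr, quasi-likelihood test, Benjamini-Hochberg adjustment over 16661 genes, threshold 0.05). The standard error (SE) is the log2 fold change over the square root of F. The biological coefficient of variation was 41.6%. Alternatives were RLE, upper-quartile and no factors, no filter and at least 10 counts in every sample, DESeq2 1.42.0, limma voom 3.58.1, a robust fit, a replicate block, a correction with splines (4 degrees of freedom) for GC content and length, which covered 92.6% of tested genes, and each library left out. Ratios were compared with exact permutation tests (scipy 1.17.1). Lengths are from GENCODE M21, and coordinates and promoters from RefSeq GRCm38.p6. The edgeR fit was tested on simulated data.

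Named pathway genes are those with an unadjusted p under 0.05, the 2 highest and 2 lowest values of each list, and the 3 genes most like Tead1, Ccn1 and Ccn2, of which 1 is not reported here. Ankrd1 and F3 as examples, and the genes around Lats1 and Tead3, were chosen after their values were seen. The members and lists were chosen with earlier results of these data known.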

Additional observations from a re-analysis of the deposited data

How the results depend on the processing

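Of 135 fold changes of members under 15 alternatives, 120 kept their direction and 15 reversed, and none reached an adjusted p under 0.05. Yap1, at -0.03, was 0.02 with RLE factors, with at least 10 counts in every sample and with DESeq2 on the same genes, 0.07 with upper-quartile factors, 0.30 with total counts, 0.01 with limma voom, and -0.27 to 0.36 with a library left out. Wwtr1 was -0.16 with the GC and length correction. With a library left out, Tead2 ranged from -0.52 to 0.95, Tead4 from -1.27 to 0.42 and Ccn2 from -1.25 to 2.93. Members with an unadjusted p under 0.05 numbered 1 with upper-quartile factors (Tead1), 2 with total counts (Tead1 and Ccn1), 1 with the GC and length correction (Ccn1) and 0 to 2 with a library left out. The median of the published targets was 0.58 with total counts, under which the median of all tested genes was 0.30. With a library left out, the median of the published targets was 0.01 to 0.91. Genes with an adjusted p under 0.05 numbered 55 with DESeq2 on the same genes, 59 with its default filtering and 0 to 1 with a library left out. Genes with an unadjusted p under 0.05 numbered 738 to 1634 with a library left out. The causes were not tested.

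Deviations of same-numbered libraries from their group means correlated at -0.35, which gave no sign that replicate numbers pair the samples. With 2 libraries a group, the value is the same for both replicate numbers by construction. With the replicate block, Yap1 was 0.01 and 754 genes had an unadjusted p under 0.05.

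With 2 libraries a group, changes of the size seen for Tead1 and Ccn1 could not be told from the spread between libraries. Tead3 rested on 10 to 18 counts, and the 0 of Lats1 was not interpretable.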
